A study of Homo sapiens with 15 samples.

Results

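The genes that encode subunits of the BAF complexes, the mammalian SWI/SNF chromatin remodellers, were examined in C4-2B cells by RNA-seq. The set holds 31 genes of the 58302 in the count tables. They were chosen by name as subunits of canonical, polybromo and non-canonical BAF. No measured value entered that rule, although earlier results of these data were known when the set was chosen. C4-2B is an established human prostate adenocarcinoma line derived from LNCaP, labelled as wild type in genotype and grown in serum without a treatment named in the labels. The series labels 15 libraries in 5 groups of 3 replicates. Only the C4-2B group was used here, and the other 4 groups, DKD and ER cells given either scr or siPax5, were not analysed here. All levels below therefore describe 1 cell line, and nothing in the labels says whether its 3 replicates were separate cultures, so their spread may be technical.

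The 3 libraries held 44992971, 49569026 and 46232076 counts in genes. Levels are given as TPM, computed from the counts and the gene length in the deposited tables so that genes can be compared per length. Values are mean ± SD over 3 libraries throughout. The adenocarcinoma label was checked against marker genes. All 5 prostate luminal markers were at 197 TPM or more, and their summed level was 2947 to 2977 TPM per library. Of 8 neuronal or neuroendocrine markers, 3 reached 1 TPM in all libraries, with a summed level of 8.76 to 9.48 TPM. Those 3 were MAP2 at 4.92 ± 0.246 TPM, CHGA at 1.38 ± 0.243 and SYP at 1.31 ± 0.077. By contrast, STMN2 had 1 count and SNAP25 had 3 counts over all libraries.

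BAF complexes use the energy of ATP to slide or eject nucleosomes, and so open chromatin for transcription factors. Each complex carries 1 of a pair of ATPases, SMARCA4 or SMARCA2, on a core of SMARCC, SMARCD and actin-related subunits. A scaffold then sets the form: ARID1A or ARID1B in canonical BAF, ARID2 with PBRM1 and BRD7 in polybromo BAF, and BICRA or BICRAL with BRD9 in non-canonical BAF. Many positions can be filled by any of several paralogues. When neural progenitors leave the cell cycle and become neurons, ACTL6A is exchanged for ACTL6B, SS18 for SS18L1, and PHF10 or DPF2 for DPF1 or DPF3. In that transition the microRNAs miR-9* and miR-124 act on the ACTL6A messenger RNA, and REST, a repressor of neuronal genes, holds those microRNAs down in non-neural cells. The series concerns neuroendocrine-like change of prostate cancer cells, so the question addressed here is which of the exchangeable subunit genes the adenocarcinoma line expressed as RNA. Protein and assembled complexes were not measured, so a share of TPM at a position is not a share of complexes.

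The sequences involved in this exchange are shown first. The strand of the MIR9 hairpins named miR-9-3p, also called miR-9*, is the same from MIR9-1 (chr1:156420354-156420375, minus strand), MIR9-2 (chr5:88666866-88666887, minus strand) and MIR9-3 (chr15:89368071-89368092, plus strand) in RefSeq on GRCh38.p14. It is given 5′ to 3′ with the seed, bases 2 to 8, in capitals. Below it stand the sites in the 3′ UTR of the canonical ACTL6A transcript (GENCODE 44, GRCh38, plus strand), with the letters complementary to the seed in capitals. The first lies at chr3:179588045-179588066 and the second at chr3:179588134-179588155.
miR-9-3p: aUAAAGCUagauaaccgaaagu
ACTL6A first site: accttacgtttcatAGCTTTAg
ACTL6A second site: cttaaattttttaaAGCTTTAa

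Within its 397 bases, the ACTL6A 3′ UTR held 2 matches to the miR-9-3p seed. No match was found in the 149 bases of the ACTL6B 3′ UTR. The same was true of SS18, SS18L1, PHF10, DPF1 and DPF3. At least 1 match was present in 7 of the 31 members, and these were ACTL6A, SMARCD2, SMARCC1, ARID2, SMARCE1, SMARCA2 and BCL11B. Of 19559 canonical coding transcripts, 13.5% held at least 1 match and 2.46% held 2 or more. ACTL6A was the 1 member with 2. UTR lengths ranged from 70 bases in BCL7C to 10263 in DPF3, and longer sequences have more room for a match. A match of letters is a description of sequence, not a measured site.

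The 250 bases before the RefSeq start are shown for 3 genes of the exchanged pairs at the actin-related and SS18 positions, ACTL6B (chr7:100656449-100656698, minus strand), SS18 (chr18:26091220-26091469, minus strand) and SS18L1 (chr20:62143519-62143768, plus strand), all on GRCh38.p14. They are printed 5′ to 3′ on the gene's strand, with every CG pair in capitals, because SS18 and SS18L1, whose levels are compared below, differ in this feature.
ACTL6B: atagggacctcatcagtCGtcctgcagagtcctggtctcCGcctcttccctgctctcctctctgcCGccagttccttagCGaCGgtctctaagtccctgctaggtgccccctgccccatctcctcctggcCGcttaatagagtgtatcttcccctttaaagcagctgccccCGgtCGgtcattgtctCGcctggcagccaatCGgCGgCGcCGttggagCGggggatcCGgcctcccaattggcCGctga
SS18: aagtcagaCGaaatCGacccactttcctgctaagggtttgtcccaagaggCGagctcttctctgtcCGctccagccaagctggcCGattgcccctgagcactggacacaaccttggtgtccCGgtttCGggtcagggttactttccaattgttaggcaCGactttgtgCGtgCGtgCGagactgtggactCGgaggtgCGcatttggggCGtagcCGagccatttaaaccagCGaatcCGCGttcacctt
SS18L1: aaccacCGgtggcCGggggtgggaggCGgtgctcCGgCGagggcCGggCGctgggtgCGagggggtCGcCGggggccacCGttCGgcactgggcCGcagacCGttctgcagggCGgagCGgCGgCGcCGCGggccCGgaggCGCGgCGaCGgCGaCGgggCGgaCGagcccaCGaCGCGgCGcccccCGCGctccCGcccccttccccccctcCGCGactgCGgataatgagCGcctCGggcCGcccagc

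ACTL6B had 16 CG pairs in this window, SS18 had 18 and SS18L1 had 42. At the BAF45 position, whose promoters are not printed, PHF10 had 39, DPF2 had 30, DPF1 had 28 and DPF3 had 16. The SS18L1 promoter held more CG pairs than 98.6% of the 35116 promoters in the table, against 63.2% for SS18 and 59.0% for ACTL6B. A promoter was matched for 26 of the 31 members, and not for ACTL6A, SMARCC1, SMARCC2, ARID2 and ACTB. ACTL6A and ACTL6B could therefore not be compared in this feature. The values that follow are for the matched members. Their median was 28 CG pairs, from 11 to 44, against a median of 11 over all promoters, and 25 of the 26 members lay above that median. BICRAL, with 11, was at it. The background of all promoters was not limited to expressed genes, so a high number of CG pairs cannot be called particular to the set. Of the REST recognition element, TTCAGCACC from its left part and GGACAG from its right part were searched as exact matches on both strands. They do not overlap each other, and GGACAG, with 6 bases, is not the whole right part. TTCAGCACC was in 0 of the 26 windows and in 0.288% of all promoters. GGACAG was in those of SMARCD2, SS18 and BCL7C, or 3 of 26, and in 17.2% of all promoters. So common a match is not a REST site. Bases outside these windows were not searched, so neither result says whether a member has a REST site.

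Across the whole set, 28 of 31 members were expressed at 1 TPM or more in all 3 libraries, or 90.3%. The same level was reached by 61.2% of 19708 protein-coding genes and by 32.8% of all genes. The median over the members was 26.3 TPM, against 5.88 over protein-coding genes and 0.171 over all genes. Without ACTB, which stood far above the others, it was 24.6 TPM. The 3 members that fell short were ACTL6B, DPF3 and BCL11A. Expression of BAF genes was otherwise spread over a moderate range, with 24 members at 10 TPM or more in every library and 4 below 2 TPM in all of them. When members were ordered by mean level, the library values of 20 of the 30 neighbouring pairs did not overlap, and those of 10 did.

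**Figure D1:**
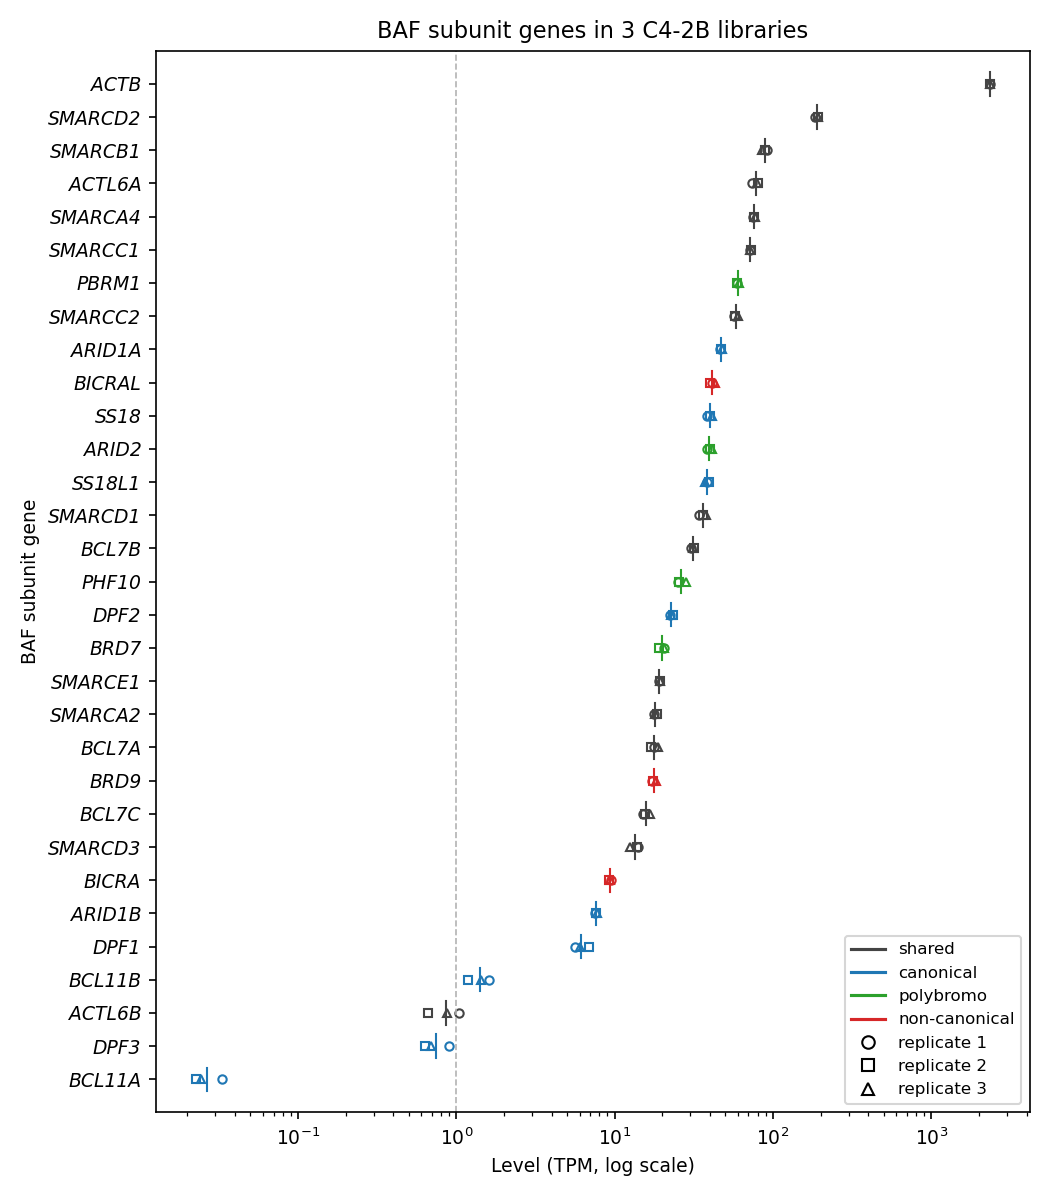
Level of each of the 31 BAF subunit genes in each of 3 C4-2B libraries, in TPM on a log axis, with symbols for the replicates, a vertical bar at the mean, and colour for the form of the complex. The dashed line marks 1 TPM. ACTB stands at 2347 TPM, and the lowest members are BCL11B, ACTL6B, DPF3 and BCL11A, the last at 0.0266 TPM.

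The ATPases were examined first. SMARCA4, the BRG1 motor (ENSG00000127616, chromosome 19, 10961001 to 11065395), was at 75.0, 75.9 and 76.8 TPM in replicates 1 to 3. SMARCA2, the BRM motor (ENSG00000080503, chromosome 9, 1980290 to 2193624), was at 17.8, 18.5 and 18.0 TPM. Every library had more SMARCA4 than SMARCA2, with no overlap. The log2 ratio was 2.07 ± 0.03, or 4.20-fold, and SMARCA4 made up 80.8% ± 0.326 of the summed TPM of both. SMARCA2 has a deposited exon length of 18595 bases, while its canonical transcript has 5748. Per canonical transcript length the ratio was 1.36 ± 0.03 on the log2 scale, or 2.57-fold, with the same order. In this alternative, here and below, counts over all exons were divided by the canonical length. Reads in exons outside the canonical transcript can therefore raise a gene's value.

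Of the core subunits that stand beside the motor, SMARCB1, SMARCC1 and SMARCC2 lay well above the median of the set and SMARCE1 lay below it. SMARCB1, a tumour suppressor that contacts the nucleosome acidic patch, was at 91.2, 89.2 and 85.8 TPM. SMARCC1 was at 72.1 ± 0.656 TPM and SMARCC2 at 58.0 ± 1.74 TPM. These scaffold paralogues, known as BAF155 and BAF170, pair with each other in the core. Their log2 ratio of 0.31 ± 0.04 was positive in all libraries, but per canonical transcript length it was -0.17 ± 0.04, so the order of SMARCC1 and SMARCC2 rests on the length used. SMARCE1, which carries an HMG domain for binding DNA, was at 19.2 ± 0.200 TPM. It shares 10.7% of its exon bases with other genes, and reads over shared bases were not counted, so its level can be too low. Over the bases it shares with no gene, SMARCE1 was at 20.5 ± 0.211 TPM. SMARCB1 and SMARCE1 are not part of the non-canonical form, although they are counted here with the shared subunits.

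Among the SMARCD paralogues, which link the core to transcription factors, SMARCD2 led. It was at 185, 191 and 194 TPM, and was the highest member after ACTB. SMARCD1 was at 33.9, 35.9 and 37.8 TPM and SMARCD3, the form known from muscle and heart, at 14.1, 13.8 and 12.5 TPM. The libraries of these genes did not overlap. SMARCD2 held 79.4% ± 0.0276 of the summed TPM, SMARCD1 15.0% ± 0.492 and SMARCD3 5.64% ± 0.466. SMARCD1 was 5.30-fold below SMARCD2 (log2 ratio -2.41 ± 0.05) and 2.66-fold above SMARCD3 (1.41 ± 0.17). SMARCD3 shares 13.8% of its exon bases with other genes, and per canonical transcript length SMARCD1 was 1.53-fold above it.

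Actin and actin-related subunits form a module on the motor. ACTB, cytoplasmic beta-actin, was at 2348, 2342 and 2351 TPM, above 99.9% of protein-coding genes. Beta-actin is also a main part of the cytoskeleton, so its level says little about the complex, and ACTB has processed copies in the genome whose reads are not counted when they align to several places, which makes its value uncertain. ACTL6A is described with its neuronal partner below. Of the BCL7 subunits, which bind near the motor, BCL7B was at 31.2 ± 0.810 TPM, BCL7A at 17.8 ± 0.932 and BCL7C at 15.8 ± 0.795. BCL7B took 48.2% ± 1.34 of their summed TPM, BCL7A 27.4% ± 1.04 and BCL7C 24.4% ± 0.536. BCL7C has 4398 bases of exons but a canonical transcript of 857, and BCL7A and BCL7C share 9.78% and 13.2% of their exon bases with other genes. Per canonical transcript length BCL7C took the largest share, 45.3% ± 0.757, a value that can be too high because its counts came from all 4398 bases. The order of the BCL7 genes thus rests on the length used.

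**Figure D2:**
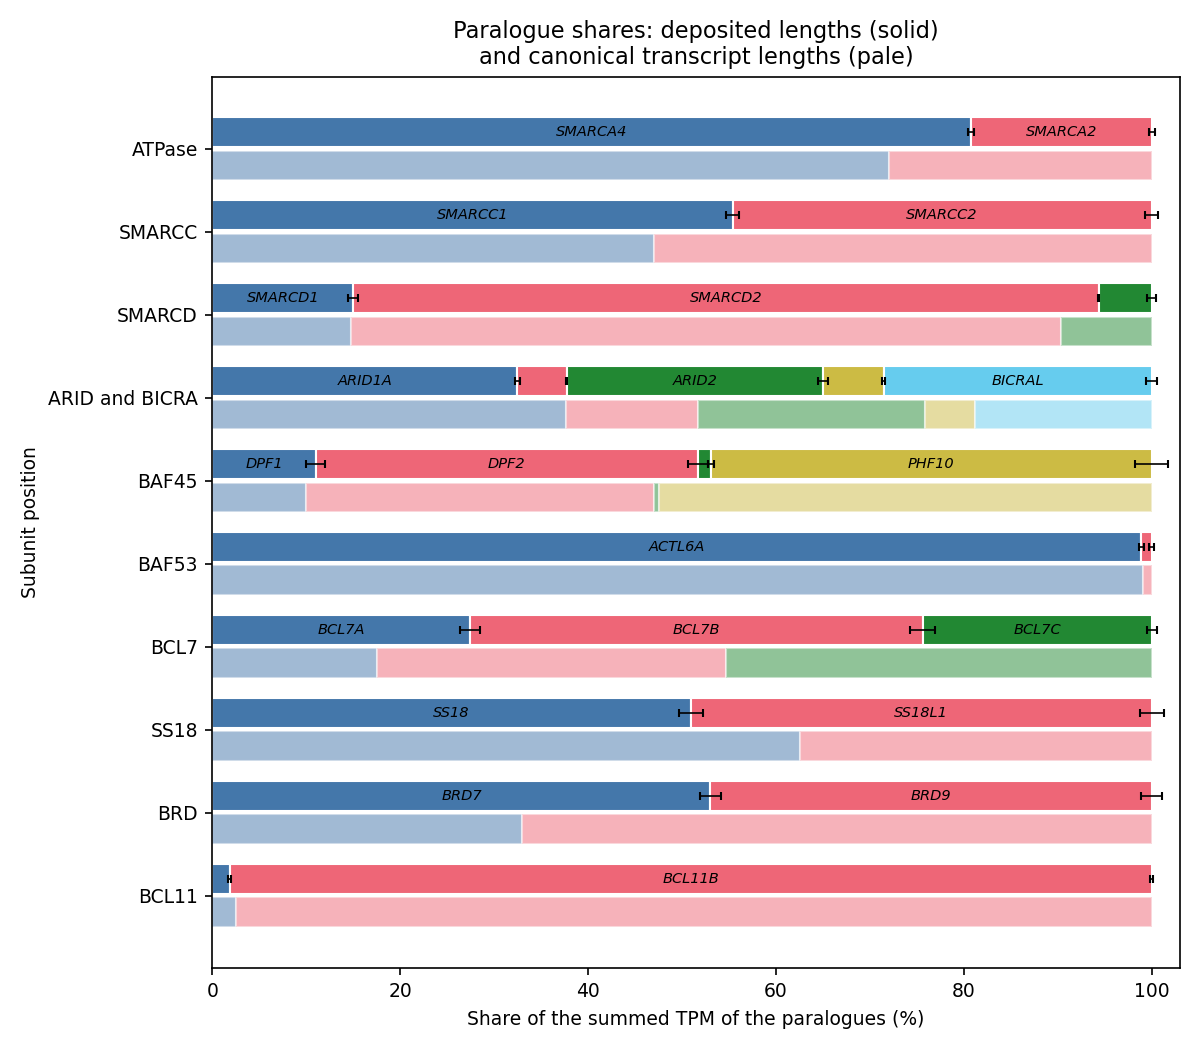
Share of the summed TPM of each set of paralogues (%), as stacked bars, for 10 subunit positions. Solid bars use the deposited gene lengths and carry error bars of 1 SD over 3 libraries at the end of each segment, and pale bars use canonical transcript lengths. Narrow segments without a name are SMARCD3, ARID1B, BICRA, DPF3, ACTL6B and BCL11A. ACTL6A takes 98.9% of its position in the solid bar, while SS18 takes 50.9%.

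The scaffolds that set the form of the complex were compared next. ARID1A, the scaffold of canonical BAF and a frequent target of mutation in cancer, was at 46.3, 47.0 and 47.9 TPM. Its paralogue ARID1B was at 7.55, 7.58 and 7.70 TPM. All libraries had more ARID1A, with a log2 ratio of 2.63 ± 0.01 or 6.18-fold. The size of this difference depends on the length, since ARID1B has 44058 bases of exons and a canonical transcript of 10310, and per canonical transcript length it was 1.42 ± 0.01 or 2.68-fold. ARID2, which takes the place of ARID1A in polybromo BAF, was at 38.1, 39.9 and 40.9 TPM. BICRAL, a scaffold of non-canonical BAF, was at 41.2, 40.0 and 42.9 TPM, and its paralogue BICRA at 9.44, 9.19 and 9.35 TPM. BICRAL was thus above BICRA in all libraries, by 4.43-fold (log2 ratio of BICRA to BICRAL -2.15 ± 0.04).

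Summed by form, the scaffolds were at 54.7 ± 0.917 TPM for canonical BAF (ARID1A and ARID1B), 39.6 ± 1.43 for polybromo BAF (ARID2) and 50.7 ± 1.56 for non-canonical BAF (BICRA and BICRAL). The lowest canonical value, 53.8 TPM, lay above the highest non-canonical value, 52.3 TPM, and both lay above every ARID2 value. With canonical transcript lengths the sums were 80.0 ± 1.33, 37.3 ± 1.38 and 37.3 ± 1.13 TPM. Canonical scaffolds were highest with either length, whereas the gap between polybromo and non-canonical scaffolds was present with the deposited lengths and not with canonical ones.

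The remaining polybromo subunits were all expressed. PBRM1, which reads acetylated histones through its bromodomains and is lost in many kidney cancers, was at 60.0 ± 0.706 TPM. PHF10, the polybromo member of the BAF45 family, was at 25.3, 25.6 and 28.1 TPM. BRD7, a bromodomain protein, was at 19.9 ± 0.815 TPM, but 42.4% of its exon bases lie under other genes, among them ADCY7. Over the bases it shares with no gene, BRD7 was at 33.0 ± 1.35 TPM. BRD9, the bromodomain subunit of non-canonical BAF, was at 17.7 ± 0.478 TPM. The log2 ratio of BRD7 to BRD9 was 0.17 ± 0.07 with deposited lengths, 0.91 ± 0.07 over unshared bases and -1.02 ± 0.07 per canonical transcript length. Which of these is higher was therefore not settled.

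Canonical BAF can also carry BCL11A or BCL11B, zinc finger transcription factors known from blood and nerve cells. BCL11B was low, at 1.61, 1.18 and 1.43 TPM from 183, 147 and 166 counts. BCL11A had 4, 3 and 3 counts in the libraries, or 10 in all with an exact Poisson 95% interval of 4.80 to 18.4, and a mean level of 0.0266 TPM. BCL11B was above 1 TPM in all libraries and BCL11A in none, without overlap. Per canonical transcript length BCL11B was at 0.938 ± 0.144 TPM and no longer counted as expressed, which left 27 expressed members. The log2 ratio of BCL11A to BCL11B was -5.53 ± 0.12, or 46.3-fold lower. Such intervals cover counting error only. They are too narrow, because 1 read pair could give 2 counts and PCR duplicates carried no marker.

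Of the exchanged pairs, the actin-related subunits had the largest ratio between the progenitor and the neuronal form. ACTL6A (BAF53a, ENSG00000136518, chromosome 3, 179562880 to 179588408, plus strand), whose 3′ UTR sites are printed above, was at 73.9, 80.0 and 79.5 TPM from 3938, 4680 and 4315 counts. ACTL6B (BAF53b, ENSG00000077080, chromosome 7, 100643097 to 100656461, minus strand) was at 1.04, 0.657 and 0.878 TPM from 36, 25 and 31 counts. All ACTL6A values were far above all ACTL6B values. The log2 ratios were 6.13, 6.90 and 6.48, with a mean of 6.50 ± 0.38 or 90.7-fold, and the counts pooled over libraries gave an exact Clopper-Pearson 95% interval of 74.5 to 113-fold, for counting error only. ACTL6A made up 98.9% ± 0.286 of the summed TPM. ACTL6B lay above 36.9% of protein-coding genes. In bulk RNA a low level in many cells and a higher level in few cells cannot be told apart, which holds for ACTL6B and for every low gene here.

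The SS18 position gave a different picture. SS18, the subunit fused to SSX genes in synovial sarcoma and also part of non-canonical BAF (ENSG00000141380, chromosome 18, 26016253 to 26091217, minus strand), was at 38.5, 39.7 and 41.0 TPM. SS18L1, also called CREST, a calcium-responsive coactivator known from neurons (ENSG00000184402, chromosome 20, 62143795 to 62182484, plus strand), was at 38.4, 39.2 and 37.3 TPM. Both genes overlapped in level over the libraries. The log2 ratios of SS18 to SS18L1 were 0.0039, 0.019 and 0.14, with a mean of 0.05 ± 0.07 or 1.04-fold, so the difference was smaller than its SD. Neither gene shares exon bases with another. Per canonical transcript length SS18 was higher in all libraries, by 1.67-fold (log2 ratio 0.74 ± 0.07). The mean level of SS18L1 was then 28.6 ± 0.708 TPM, while that of ACTL6B was 0.899 ± 0.200 TPM, so SS18L1 was far above ACTL6B with either length. In the promoters printed above SS18L1 had 42 CG pairs and SS18 had 18, and a link between CG pairs and level was not tested.

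BAF45 subunits, which hold histone-reading PHD fingers, were dominated by PHF10 and DPF2. DPF2, the common subunit of canonical BAF, was at 22.4, 23.3 and 22.7 TPM. DPF1 (BAF45b), one of the neuronal forms, was at 5.58, 6.86 and 6.01 TPM from 388, 524 and 426 counts. DPF3 (BAF45c), known from heart, muscle and nerve, was at 0.901, 0.629 and 0.688 TPM from 90, 69 and 70 counts. The libraries of DPF2, DPF1 and DPF3 did not overlap. PHF10 took 46.9% ± 1.76 of the summed TPM of this position, DPF2 40.8% ± 1.08, DPF1 11.0% ± 1.05 and DPF3 1.33% ± 0.296. PHF10 was 4.29-fold above DPF1 (log2 ratio 2.10 ± 0.18) and 35.7-fold above DPF3 (5.16 ± 0.31). DPF2 was 3.72-fold above DPF1 (1.90 ± 0.12) and 31.0-fold above DPF3 (4.96 ± 0.29). Per canonical transcript length the order was the same, but PHF10 was 91.2-fold and DPF2 64.5-fold above DPF3.

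**Figure D3:**
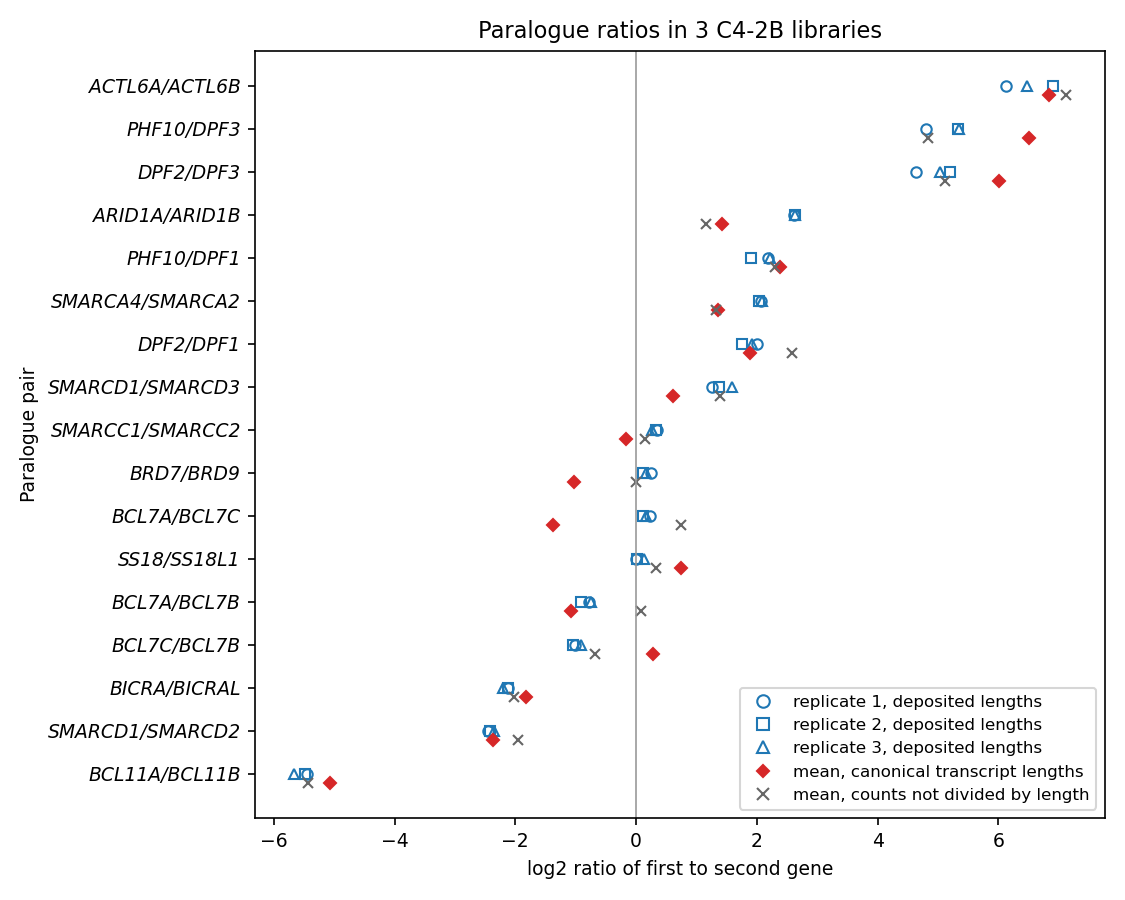
log2 ratio of the first to the second gene of each of 17 paralogue pairs. Open symbols are the 3 C4-2B libraries with deposited gene lengths, red diamonds the mean with canonical transcript lengths, and grey crosses the mean of counts not divided by length. ACTL6A/ACTL6B lies farthest to the right, with a mean of 6.50, and SS18/SS18L1 lies next to 0, with a mean of 0.05.

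The neuronal-form gene thus had the lower value in every library for all 4 exchanged pairs that were counted. These were ACTL6A/ACTL6B, SS18/SS18L1, PHF10/DPF1 and PHF10/DPF3, and the size went from 1.04-fold to 90.7-fold. PHF10 stands in both BAF45 pairs, so these are not independent of each other. DPF2 was not part of this count, and it too was above DPF1 and DPF3 in every library. For SS18/SS18L1 the difference was smaller than its SD, with a log2 ratio of 0.0039 in replicate 1. With the deposited lengths that pair was therefore close to a tie. Over all 17 paralogue pairs compared, each had 1 order in all 3 libraries. An exact two-sided sign-flip permutation test over 3 libraries cannot go below p = 0.25, and gave 0.25 for every pair, so no order could pass 0.05. The mean ratio changed sign with canonical transcript lengths in 4 of the 17 pairs, which were SMARCC1/SMARCC2, BCL7A/BCL7C, BCL7C/BCL7B and BRD7/BRD9. None changed sign over the exon bases that no other gene shares.

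Regulators of the exchange were then examined. REST was at 42.3, 44.6 and 45.2 TPM from 4890, 5673 and 5335 counts, so the repressor was expressed in every library. The hairpin genes MIR9-1, MIR124-2 and MIR124-3 had 0 counts in every library. At 3 counts over the 3 libraries, the limits were 0.746, 0.609 and 0.763 TPM respectively. MIR9-3 had 2, 1 and 0 counts, which is at that limit. MIR9-2 and MIR124-1 had 0 counts too, but all of their bases lie under exons of another gene, where reads are not counted. These libraries did not measure mature microRNAs, so the values say nothing of the level of miR-9* or miR-124 themselves.

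To understand how stable the subunit levels were, the 3 libraries were compared with each other. For the 24 members at 10 TPM or more, the coefficient of variation ran from 0.192% in ACTB to 6.33% in SMARCD3, with a median of 2.85%. For 22229 genes, a chi-square test asked whether the counts followed the TMM-scaled library sizes, with the statistic divided by 2 because each pair could give 2 counts. It compares libraries and not conditions. None of the 30 members tested passed a Benjamini-Hochberg adjusted p of 0.05, against a background of 0.792% of all genes tested. BCL11A had too few counts to be tested. At an unadjusted p under 0.05 there were 4 members (13.3%), and 11.3% of all genes. They were ARID2, ACTL6A, SMARCD1 and PHF10, with adjusted p-values of 0.386, 0.406, 0.406 and 0.409 in this chi-square test.

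Without the division, 7 of the 30 members passed, or 23.3%, against a background of 17.3% of all genes. These were the same 4 with DPF1, BICRAL and SMARCD3. The libraries that stood apart were not the same for each. ACTL6A was lowest in replicate 1, with scaled counts of 4112, 4429 and 4379. DPF1 was lowest there and highest in replicate 2, with 405, 496 and 432, whereas PHF10 was highest in replicate 3, with 2115, 2130 and 2331. The range between the lowest and the highest library had a median of 0.080 on the log2 scale for the members and 0.19 for all genes tested, which include many genes with fewer counts. Within the set the widest ranges were those of ACTL6B (0.66), DPF3 (0.52), BCL11A (0.50) and BCL11B (0.46), the 4 lowest members.

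**Figure D4:**
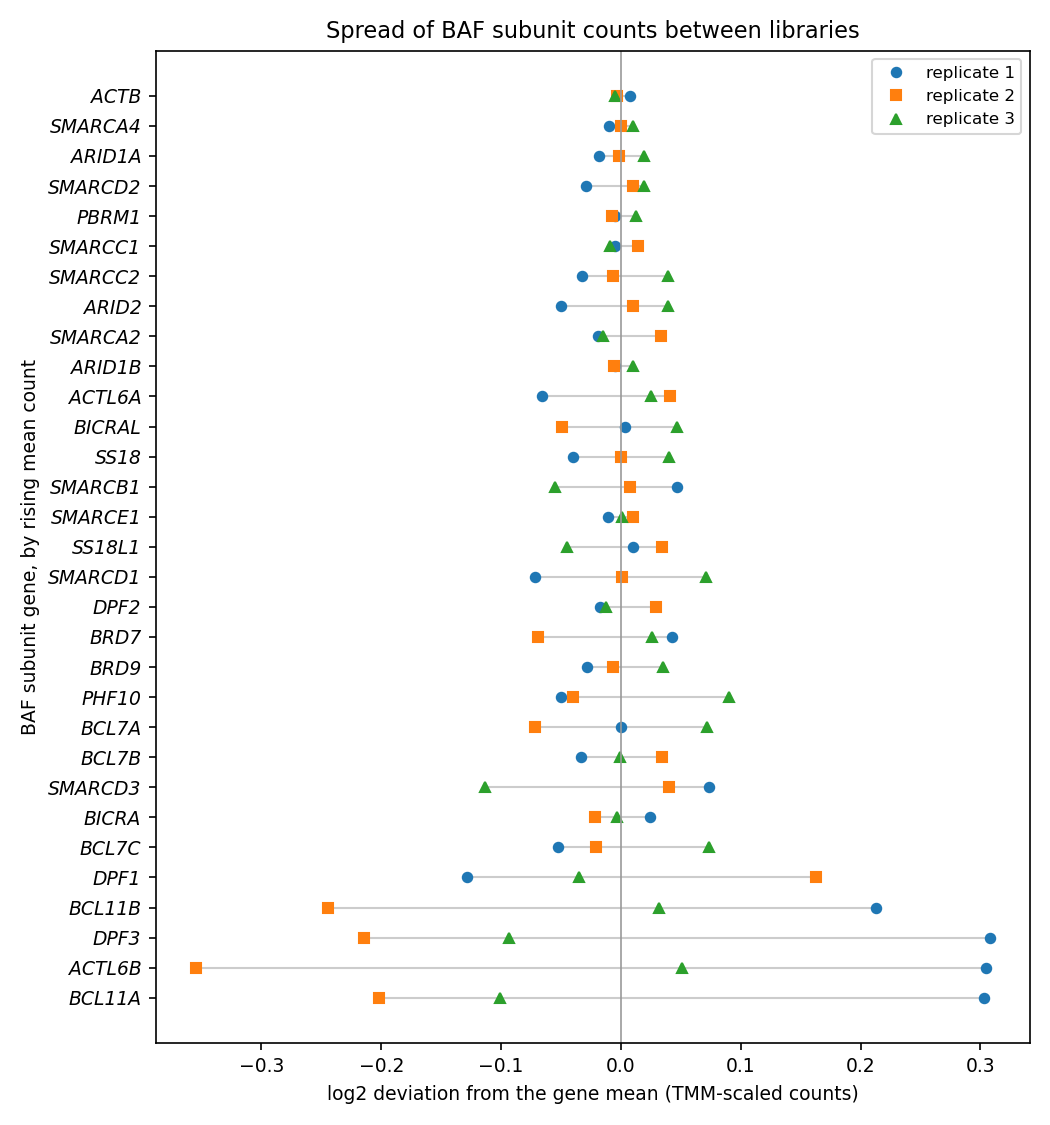
log2 deviation of each library's TMM-scaled count from the gene mean, for the 31 BAF subunit genes, ordered from the fewest counts at the bottom to the most at the top. Symbols are the 3 C4-2B libraries and grey lines join the lowest to the highest. The 4 genes at the bottom, BCL11A, ACTL6B, DPF3 and BCL11B, have ranges of 0.46 to 0.66, and the median range of the tested members is 0.080.

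Other ATP-dependent remodellers served as a comparison for the level of the set. Of 17 motor genes of the ISWI, CHD, INO80 and related families, 15 were expressed at 1 TPM or more in all libraries, with a median of 27.7 TPM. CHD4, the motor of the NuRD complex, was the highest at 133 ± 2.02 TPM and CHD5, known from neurons and testis, the lowest at 0.620 ± 0.125 TPM. SMARCA4 at 75.9 TPM and SMARCA2 at 18.1 TPM both lay within this range. None of the 17 motors differed between libraries in the divided chi-square test, and the smallest adjusted p was 0.242, for CHD9.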

How the data were processed

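Ribosomal RNA was depleted from total RNA, per the labels, and strand-specific libraries were sequenced in pairs. The authors aligned reads to GRCh38 (STAR 2.7.0f), and counted them with featureCounts 1.6.3 on Ensembl 90. The deposited counts are raw, per the file headers. No strand was set, mates were counted separately, and reads over exons of more than 1 gene, or aligned to several places, were not counted. The submitters' processing notes also name FastQC, Trim Galore and DESeq2 1.26.0. Only C4-2B, grouped and numbered by sample title, was analysed, so no comparison of conditions was made.

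Symbols were matched by Ensembl identifier for all 31 members. TPM was computed over all 58302 genes from the counts and the deposited length, the union of a gene's exons. A gene was called expressed at 1 TPM or more in all 3 libraries. Paralogue ratios were taken within each library from counts per length, with 0.5 counts added to each gene. Libraries held 44992971 to 49569026 counts. Limits for 0 counts are the TPM of 3 counts over the 3 libraries. The chi-square test, which has 2 degrees of freedom, was made on genes with at least 30 counts with TMM factors from edgeR 4.0.16 in R 4.3.3, and was tested on simulated data. edgeR's quasi-likelihood test has no contrast with 1 group. Other work used Python 3.11.15, pandas 2.3.3 and SciPy 1.17.1. Gene coordinates, counted from 1, were copied from the deposited tables. Canonical transcript lengths (GENCODE 44), never above the deposited length, were an alternative chosen after seeing the data. They were capped for 3 members (SMARCB1, DPF3 and BCL11B). Counts over all exons were still used with them, so reads outside the canonical transcript can raise a value. The members, pairs and lists were chosen with earlier results of these data known. All members are named, and of other lists mainly the highest and lowest gene.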

Additional observations from a re-analysis of the deposited data

How the results depend on the processing

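Canonical transcript lengths, an alternative chosen after seeing the data, reversed the log2 ratios SMARCC1/SMARCC2 (-0.17), BCL7A/BCL7C (-1.37), BCL7C/BCL7B (0.28) and BRD7/BRD9 (-1.02). Counts not divided by length reversed BCL7A/BCL7B (0.078). These alternatives change the length alone, so the length used is what moved them. The other 131 of 136 alternative ratios kept their direction, and 12 of 17 pairs were never reversed. Of the 136, 51 left out a replicate and could not reverse, since each pair had 1 order in all 3 libraries. Adding no counts or taking log2(TPM + 1) could hardly reverse any either. ACTL6A/ACTL6B stayed between 79.0 and 139-fold and SS18/SS18L1 between 1.01 and 1.67-fold, leaving aside the difference of log2(TPM + 1), which understates low genes and was 5.41 and 0.053. The 4 neuronal-form genes were below their partner under every alternative run, SS18L1 by a mean of as little as 1.01-fold. The results with a replicate left out were fixed in advance by the order in all libraries. Leaving out each replicate in turn gave 28 expressed members each time, and other units, minimums, lengths and denominators gave 27 to 30. Members differing between libraries numbered 7 with the chi-square not divided by 2, and 0 with DESeq2 1.42.0 size factors, total counts, other count minimums or any replicate left out. No paired analysis was possible because only the C4-2B group was analysed, so no second group shares its replicate numbers. TPM depends on the denominator, so comparisons with other tables need the same one. Genes of few counts, such as ACTL6B with 92 and BCL11A with 10, are limited by depth.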
